A study of Mus musculus with 6 samples.

Results

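The 8 genes described here were grouped under sphingosine 1-phosphate (S1P) sensing and lymphocyte egress, which does not show that each acts in these processes. Their levels were compared between ILC1s (type 1 innate lymphoid cells) and NK (natural killer) cells of mouse tumours. They were taken by symbol, as S1P receptors, Krüppel-like factors (KLFs), CD69 and genes linked with circulation, and comprise S1pr1, S1pr4, S1pr5, Klf2, Klf3, Cd69, Samd3 and Rasa3. All 8 were present among the 55291 symbols of the count table, and all 8 passed the low-count filter. The cells were sorted from MC38 tumours, a colon carcinoma line of C57BL/6 origin, grown under the skin of wild-type C57BL/6 mice until day 14, and RNA-seq libraries were made from 3 ILC1 and 3 NK samples. Both cell types came from the same tumour model without further treatment or genetic change. The sources used here give neither the surface markers of the sort nor whether samples came from separate mice, and the p-values therefore reflect the spread among these 6 samples, which may be technical.

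S1P is abundant in blood and lymph and scarce in tissue, and lymphocytes that carry S1P receptors leave tissue along this gradient. In mouse lymphocytes the factor KLF2 drives S1pr1 transcription, and CD69, a lectin-like protein made early after activation, binds S1PR1 and draws it from the cell surface. S1PR5 serves the exit of mouse NK cells from bone marrow and lymph nodes, and its expression there requires T-bet. Tissue-resident lymphocytes of the mouse keep KLF2 and S1PR1 low, through Hobit (Zfp683) and Blimp-1 (Prdm1) among others.

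The libraries held 16931099 to 20224847 counts. Markers of group 1 lymphocytes were present throughout, with 14 genes summing to 8255 to 9317 CPM (counts scaled to a common library size) in ILC1 libraries. The NK libraries were higher, at 9639 to 14631 CPM. At an unadjusted p under 0.05 in edgeR's test, 7 of the 14 were lower in ILC1s (8.82% of all genes) and 3 higher (6.95%). Their median log2 fold change (ILC1 minus NK) was -0.60, beside 0.081 for all genes tested. Eomes, an NK cell transcription factor, averaged 125 ± 51.8 CPM in ILC1 libraries and 494 ± 115 CPM in NK libraries. The libraries also differed in genes of other cells. Col3a1, a collagen gene, stood at 472, 762 and 20.8 CPM in ILC1 replicates 1 to 3 and at 0.350, 4.16 and 403 CPM in NK replicates 1 to 3. ILC1 replicates 1 and 2 and NK replicate 3 are called the collagen-rich libraries below, a grouping made after their values were seen. NK replicate 3 also differed less from ILC1 replicates 1 and 2 than from NK replicates 1 and 2. Its median chi-square per gene was 4.19 and 7.52 against those ILC1 libraries, and 15.6 and 16.9 against those NK libraries. The library sets used below are NK replicates 1 and 2, the collagen-rich libraries, and ILC1 replicate 3. With a term for these sets, the cell-type difference comes from the collagen-rich libraries alone. ILC1 replicate 3 stood apart through the sum of 15 macrophage markers, at 16773 CPM. The sum was 1701 and 1504 CPM in ILC1 replicates 1 and 2, and 1785 to 2252 CPM in the NK libraries. By single gene, 8 of the 15 had every ILC1 library above every NK library (12.5% of all genes). In edgeR's test 8 were higher in ILC1s (6.95% of all genes) and 0 lower (8.82%) at an unadjusted p under 0.05. Macrophage markers were thus not confined to ILC1 replicate 3. The 11 T cell markers summed to 535 to 668 CPM in ILC1 libraries and 633 to 697 CPM in NK libraries. Of the 11, 4 were higher in ILC1s (6.95% of all genes) and 1 lower (8.82%) at an unadjusted p under 0.05. Without Trbc1 they summed to 338, 294 and 441 CPM in ILC1 replicates 1 to 3. The NK sums were then lower, at 275, 285 and 258 CPM in replicates 1 to 3. DESeq2 called Cd8a and Cd8b1 higher in ILC1s (2.76% of all genes). The B cell markers summed to 299 to 404 CPM in ILC1 libraries and 318 to 591 CPM in NK libraries. Without Ighm they summed to 21.7 to 28.0 CPM in ILC1 libraries and to less in each NK library. Neutrophil markers summed to at most 111 CPM in ILC1 libraries and 26.0 CPM in NK libraries. Epithelial markers summed to 127, 117 and 390 CPM in ILC1 replicates 1 to 3 and to 27.9 to 51.1 CPM in NK libraries. Without Cdh1 they summed to at most 19.8 CPM in ILC1 libraries and 27.9 CPM in NK libraries. The part of these cells in the levels below was not tested. In these bulk samples, fewer cells of a type and less RNA per cell cannot be told apart.

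Both S1P receptors that are linked with egress had lower levels in every ILC1 library than in any NK library. The mean level of S1pr5 was 37.0-fold lower and that of S1pr1 5.35-fold lower in ILC1s than in NK cells. Samd3, Rasa3 and Klf2 were lower too, by 2.65-fold, 2.14-fold and 1.91-fold, likewise without overlap. S1pr4 had 1 NK library at the ILC1 level, and Klf3 and Cd69 had near-equal means. None of the 8 passed edgeR's quasi-likelihood test at a Benjamini-Hochberg adjusted p under 0.05 over the 14475 genes tested, where 0.0829% of all genes passed. With DESeq2, 4 of the 8 were called lower in ILC1s (S1pr1, S1pr5, Samd3 and Rasa3), against 2.87% of all genes, and limma-voom called 0 of 8, against 0.0138%.

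**Figure D1:**
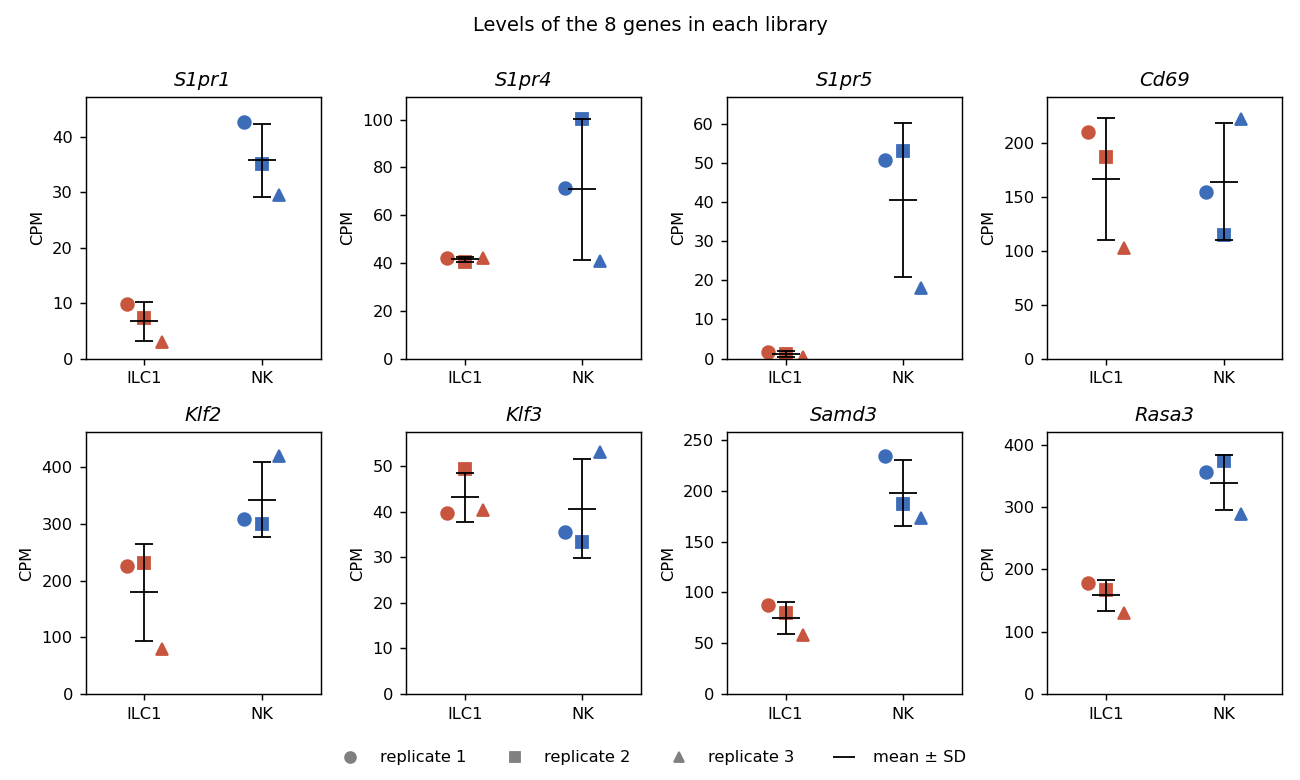
CPM of each gene on a linear axis, with a point per library (ILC1 left, NK right) and bars for the mean ± SD of 3 libraries. ILC1 points lie below all NK points for S1pr1, S1pr5, Klf2, Samd3 and Rasa3, and the cell types overlap for S1pr4, Klf3 and Cd69.

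Among the 8 genes, 5 had every ILC1 library below every NK library, a pattern shown by 13.3% of all genes tested. At an unadjusted p under 0.05 in edgeR's test, 5 of the 8 were lower in ILC1s (S1pr1, S1pr4, S1pr5, Samd3 and Rasa3), against 8.82% of all genes. The median log2 fold change (ILC1 minus NK) of the 8 genes was -1.02, beside 0.081 for all genes tested, and 6 of 8 were negative, against 44.0% of all genes. The genes had been picked with earlier results of these data known, so these counts describe them and are not independent evidence of a direction.

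S1pr5 showed the widest gap. Its level was 1.73, 1.22 and 0.348 CPM in ILC1 replicates 1 to 3, against 50.7, 53.0 and 17.9 CPM in NK replicates 1 to 3. The ILC1 values rest on 31, 25 and 6 reads, and the exact Poisson intervals (95%, counting error only) of 1.17 to 2.45, 0.788 to 1.80 and 0.128 to 0.757 CPM lie far below the 16.1 to 19.8 CPM of NK replicate 3. By rank among the 14475 genes tested, S1pr5 stood at 12126, 12711 and 13313 in the ILC1 libraries and at 3968, 3808 and 7476 in the NK libraries. The log2 fold change was -5.20 ± 0.76 (SE, edgeR adjusted p = 0.103). NK replicate 3, the collagen-rich NK library, lay below the other NK libraries but held 12.2-fold more than the mean of the collagen-rich ILC1 libraries.

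S1pr1, the receptor on which most lymphocytes rely to leave lymphoid organs, was at 9.85, 7.26 and 2.96 CPM in ILC1 replicates 1 to 3, against 42.6, 35.1 and 29.5 CPM in NK replicates 1 to 3. Every NK library exceeded the highest ILC1 library. Its log2 fold change came to -2.42 ± 0.46 (SE, edgeR adjusted p = 0.127), and within the collagen-rich libraries NK replicate 3 exceeded the ILC1 mean by 3.45-fold. Endothelial cells also make much S1pr1. The 14 endothelial markers were low apart from Pecam1, which lymphocytes share, and the other 13 summed to 60.0, 61.4 and 62.2 CPM in ILC1 replicates 1 to 3 and to 2.15, 0.411 and 23.3 CPM in NK replicates 1 to 3. In ILC1 replicate 3 most of this sum came from Flt1 and Eng, and 9 of the 13 markers were lower there than in NK replicate 3, whereas 12 of the 13 were higher in both collagen-rich ILC1 libraries than in NK replicate 3. At an unadjusted p under 0.05, 1 of the 14 markers was higher in ILC1s (6.95% of all genes) and 0 were lower (8.82%). Their part in the S1pr1 level was not tested.

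S1pr4, a receptor found mainly on blood and lymphoid cells, was at 41.9, 40.3 and 42.2 CPM in ILC1 replicates 1 to 3, against 71.5, 100.04 and 41.0 CPM in NK replicates 1 to 3. The ILC1 libraries were nearly equal, and NK replicate 3 lay among them while the other NK libraries stood above. The log2 fold change was -0.77 ± 0.32 (SE, edgeR adjusted p = 0.316), and it was 0.0041 once a term for the library sets was in the fit, so the difference rests on NK replicates 1 and 2.

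The 250 bases before the RefSeq start of S1pr5 (chr9:21248444-21248693, reverse strand, GRCm38.p6) and of S1pr4 (chr10:81500138-81500387, reverse strand) are shown because S1pr4 was the most abundant receptor of both cell types and S1pr5 had the widest gap between them. Capitals mark CACCC, the core letters of KLF sites, and CACCTG, the letters bound by ZEB factors, on either strand, each written 5′ to 3′ along the gene.

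S1pr5: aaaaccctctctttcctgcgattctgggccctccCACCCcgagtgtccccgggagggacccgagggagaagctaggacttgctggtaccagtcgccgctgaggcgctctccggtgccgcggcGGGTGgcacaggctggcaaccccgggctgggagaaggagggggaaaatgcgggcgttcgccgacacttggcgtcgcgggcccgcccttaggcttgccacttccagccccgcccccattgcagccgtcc

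S1pr4: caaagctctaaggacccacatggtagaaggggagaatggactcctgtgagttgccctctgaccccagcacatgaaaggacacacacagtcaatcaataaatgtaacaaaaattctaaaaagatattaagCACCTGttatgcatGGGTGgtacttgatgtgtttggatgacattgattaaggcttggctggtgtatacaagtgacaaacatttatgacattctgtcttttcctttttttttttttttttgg

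The S1pr5 stretch held CACCC at 2 places and the S1pr4 stretch at 1, and CACCTG was found in the S1pr4 stretch and not in that of S1pr5. Of 32851 RefSeq promoter stretches of this length, 52.01% held CACCC and 17.2% held CACCTG on either strand. The letters TCACACC, read by T-box factors such as T-bet and Eomes, and GTAAACA, read by FOXO factors, were in neither stretch and occur in 3.33% and 3.17% of all stretches. These matches are descriptions of the letters and say nothing of binding.

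The other receptors of the family, S1pr2 and S1pr3, did not have lower means in ILC1s. S1pr2, which couples to G12/13 proteins and restrains migration, was at 25.9, 27.9 and 20.3 CPM in ILC1 replicates 1 to 3, against 21.2, 22.2 and 22.9 CPM in NK replicates 1 to 3. S1pr3, better known from vessels and fibroblasts, was at 7.57, 7.26 and 15.7 CPM in ILC1 replicates 1 to 3, against 0.150, 0 and 3.27 CPM in NK replicates 1 to 3. S1pr3 was highest in ILC1 replicate 3 and, among NK libraries, in the collagen-rich one. The 12 fibroblast and matrix markers summed to 2464, 3094 and 6900 CPM in ILC1 replicates 1 to 3 and to 705, 780 and 1897 CPM in NK replicates 1 to 3. Without Fn1, which macrophages also make, the sums were 1920, 2519 and 1004 CPM in ILC1 replicates 1 to 3 and 702, 774 and 1470 CPM in NK replicates 1 to 3, so that ILC1 replicate 3 was then the lowest of the ILC1 libraries. These sums still hold Thy1, which lymphocytes also make and which had the highest level of the list after Fn1. Its log2 fold change was 0.40 (DESeq2 adjusted p = 0.395). The sums are therefore no measure of fibroblasts alone. The part of fibroblasts and macrophages in the S1pr3 level was not tested. Neither passed edgeR's test (adjusted p = 0.687 for S1pr2 and 0.419 for S1pr3).

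Shares of the summed S1P receptor mRNA were taken after scaling by exon length, and were not tested. S1pr4 took 66.4, 67.9 and 71.1% of the summed receptor level (CPM per kilobase) in ILC1 replicates 1 to 3, against 44.8, 54.1 and 45.6% in NK replicates 1 to 3. S1pr5 took 2.61, 1.96 and 0.560% in the ILC1 libraries, against 30.3, 27.4 and 19.04% in the NK libraries. S1pr1 took 12.2, 9.57 and 3.90% in the ILC1 libraries, against 20.9, 14.9 and 25.8% in the NK libraries. For each of these 3 receptors no ILC1 library overlapped an NK library. S1pr4 was the most abundant receptor per length in every library of both cell types, followed by S1pr5 and S1pr1 in NK replicates 1 and 2, by S1pr1 and then S1pr5 in NK replicate 3, by S1pr2 in ILC1 replicate 2 and by S1pr3 in ILC1 replicate 3. In ILC1 replicate 1 the shares of S1pr2 (12.3%) and S1pr1 (12.2%) were nearly equal. The summed level was 25.4 ± 0.887 CPM per kilobase in ILC1s and 60.7 ± 20.6 CPM per kilobase in NK cells (SD, n = 3 each), with the ILC1 libraries between 24.9 and 26.4 and the NK libraries at 66.9, 77.4 and 37.6.

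**Figure D2:**
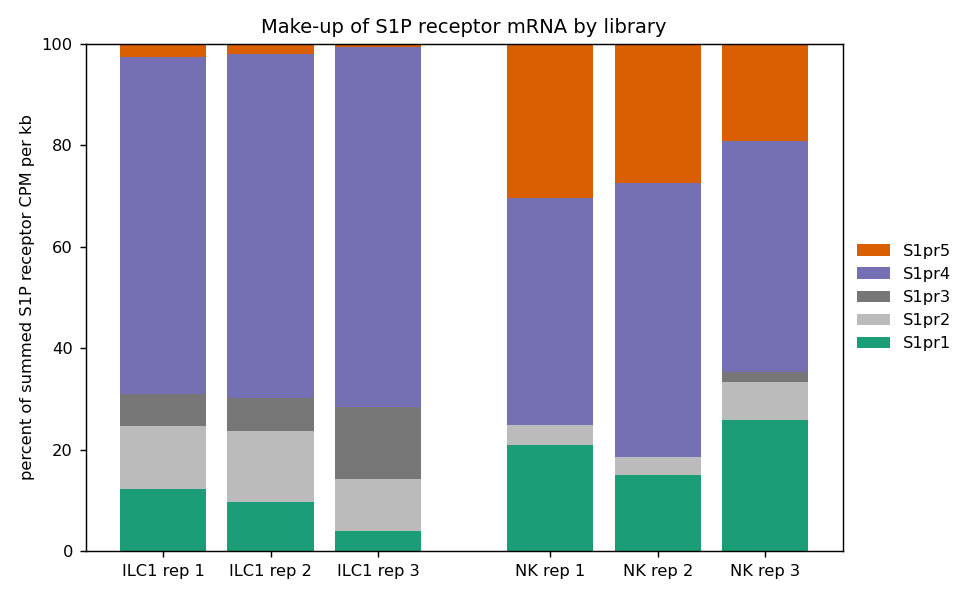
Share of each S1P receptor in the summed CPM per kilobase of the 5 receptors (percent), a bar per library with ILC1 on the left. The S1pr5 part at the top spans 0.560 to 2.61% in ILC1 libraries and 19.04 to 30.3% in NK libraries.

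Genes that make, break down or move S1P gave few differences. Of 12 such genes 11 were tested, 0 passed edgeR's test, 2 were higher and 0 lower at an unadjusted p under 0.05 (6.95% and 8.82% of all genes), DESeq2 called 1 higher (2.76% of all genes), and the median log2 fold change was 0.22. That median was 0.057 at a minimum mean of 5 CPM and turned to -0.11 without ILC1 replicate 3. Asah1, the acid ceramidase that yields sphingosine, averaged 203 ± 57.3 CPM in ILC1 libraries and 74.7 ± 50.2 CPM in NK libraries (edgeR adjusted p = 0.280), with NK replicate 3 at 133 CPM. Plpp2, a lipid phosphate phosphatase, averaged 24.9 ± 2.76 CPM in ILC1 libraries and 15.02 ± 3.89 CPM in NK libraries (edgeR adjusted p = 0.274). Mfsd2b, an S1P exporter of red cells and platelets, was at most 2.31 CPM in any library. Sphk1, an S1P-forming kinase, was at 13.1 CPM in the macrophage-rich ILC1 replicate 3 and at 1.85 CPM or less in the other libraries.

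Among 11 tested genes that couple S1P receptors to the cell or internalise them, 0 passed edgeR's test, 3 were lower (8.82% of all genes) and 0 higher (6.95%) at an unadjusted p under 0.05, and the median log2 fold change was -0.11. That median turned to 0.027 without ILC1 replicate 1 and 0.041 without ILC1 replicate 2, and was -0.43 without ILC1 replicate 3. Dock2, an activator of Rac needed for lymphocyte migration, averaged 344 ± 40.8 CPM in ILC1 libraries and 639 ± 117 CPM in NK libraries (log2 fold change -0.89 ± 0.19, edgeR adjusted p = 0.142). It was the 1 gene of this list that DESeq2 called, as lower (2.87% of all genes). Grk2, the kinase that desensitises S1PR1, averaged 405 ± 72.5 CPM in ILC1 libraries and 623 ± 157 CPM in NK libraries (edgeR adjusted p = 0.307).

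Cd69 mRNA did not separate the cell types. It was at 211, 187 and 103 CPM in ILC1 replicates 1 to 3, against 155, 115 and 223 CPM in NK replicates 1 to 3. The 3 collagen-rich libraries were the highest and ILC1 replicate 3 the lowest, so the order followed the library sets and not the cell type. Its log2 fold change came to 0.025 ± 0.35 (SE, edgeR adjusted p = 0.978), which at this spread does not show that the levels are alike. The ratio of Cd69 to S1pr1 per length was higher in every ILC1 library than in any NK library, at 10.02, 12.1 and 16.3 in ILC1 replicates 1 to 3 against 1.70, 1.53 and 3.53 in NK replicates 1 to 3. The geometric mean of the ratio differed 5.99-fold. With the APPRIS principal transcript lengths, under which Cd69 is shorter, the ratios were 38.7, 46.5 and 63.02 in ILC1 replicates 1 to 3 and 6.58, 5.90 and 13.6 in NK replicates 1 to 3, and the fold between cell types was the same. Since the mean Cd69 levels were near-equal, this ratio mainly restates the S1pr1 difference. Of 5 such ratios computed, each had an exact two-sided permutation p of 0.1, the smallest that 3 against 3 libraries can give and also the value after adjustment. The genes of these ratios were chosen with earlier results of these data known, so the p-values are not independent evidence.

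**Figure D3:**
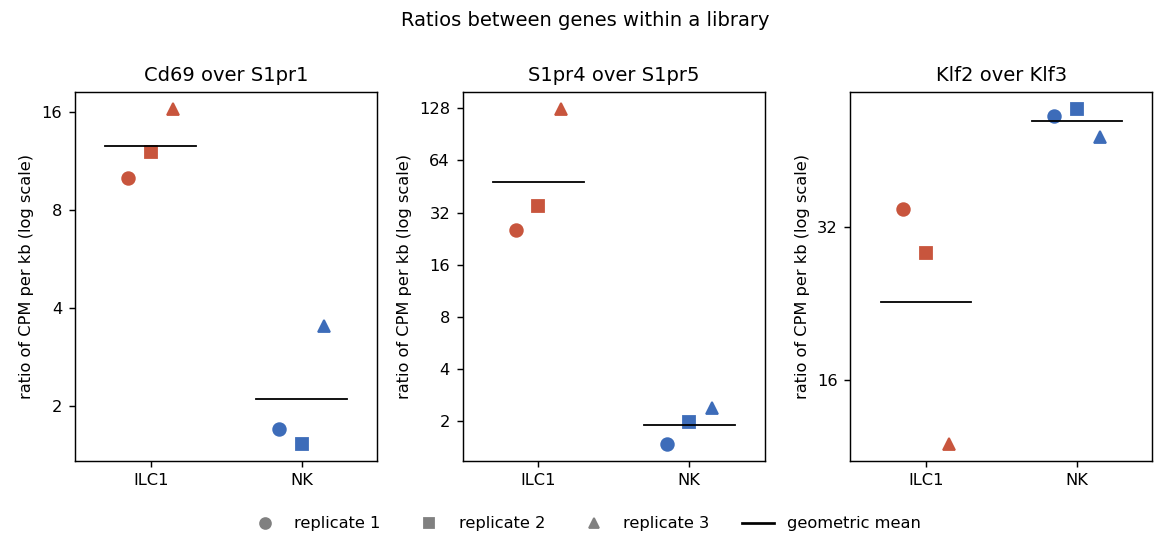
Ratio of CPM per kilobase (all exons) between a pair of genes in each library, on a log axis, with the geometric mean as a line (ILC1 left, NK right). For all 3 ratios shown no ILC1 library overlaps an NK library. The Cd69 to S1pr1 ratio lies between 10.02 and 16.3 in ILC1s and between 1.53 and 3.53 in NK cells.

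Of 17 tested genes of early activation that are often measured with Cd69, 0 passed edgeR's test, 1 was higher (6.95% of all genes) and 1 lower (8.82%) at an unadjusted p under 0.05, and the median log2 fold change was 0.27. Nr4a3, an orphan nuclear receptor induced by antigen receptor signals, averaged 165 ± 20.1 CPM in ILC1 libraries and 90.1 ± 2.59 CPM in NK libraries without overlap (log2 fold change 0.87 ± 0.13, edgeR adjusted p = 0.103). Egr2 averaged 83.4 ± 53.03 CPM in ILC1 libraries and 20.5 ± 18.9 CPM in NK libraries (edgeR adjusted p = 0.336). Dusp2, a phosphatase of MAP kinases, averaged 500.5 ± 123 CPM in ILC1 libraries and 717 ± 30.3 CPM in NK libraries (edgeR adjusted p = 0.311). DESeq2 called Nr4a3 and Egr2 higher (2.76% of all genes).

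Per length of all exons, Klf2 was the most abundant of the 8 genes in every library. With the length of the APPRIS principal transcript, which shortens Cd69 to 1687 bases from 6509, Cd69 exceeded Klf2 in ILC1 replicate 1 (125 against 123 CPM per kilobase) and ILC1 replicate 3 (61.2 against 43.1). Klf2 was at 226, 231 and 79.7 CPM in ILC1 replicates 1 to 3, against 309, 300 and 419 CPM in NK replicates 1 to 3. ILC1 replicates 1 and 2 lay near each other, ILC1 replicate 3 far below, and the collagen-rich NK replicate 3 highest of all. The log2 fold change was -0.94 ± 0.42 (SE, edgeR adjusted p = 0.350) and -0.60 without ILC1 replicate 3. That library is the one rich in macrophage markers, whose part in the Klf2 level was not tested. Among the collagen-rich libraries NK replicate 3 exceeded the ILC1 mean by 1.83-fold. By rank Klf2 stood at 700, 662 and 2849 in the ILC1 libraries and at 537, 578 and 318 in the NK libraries.

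Klf3, a repressor of the same family that opposes KLF activators at shared sites, was at 39.8, 49.5 and 40.4 CPM in ILC1 replicates 1 to 3, against 35.7, 33.4 and 53.1 CPM in NK replicates 1 to 3. The ranges overlapped, and the log2 fold change was 0.085 ± 0.22 (SE, edgeR adjusted p = 0.861). An antisense transcript, Gm20033, overlaps 404 exonic bases of Klf3 but held 0 to 31 reads per library, against 651 to 1106 reads for Klf3. The ratio of Klf2 to Klf3 per length was 34.6, 28.4 and 12.01 in ILC1 replicates 1 to 3 and 52.7, 54.6 and 47.98 in NK replicates 1 to 3, and 16.1, 13.2 and 5.58 against 24.5, 25.3 and 22.3 with the APPRIS lengths. The ILC1 ratios were all below the NK ratios (exact two-sided permutation p = 0.1).

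In the KLF family as a whole, 13 of 17 genes were tested and 0 passed edgeR's test. The median log2 fold change was 0.38, 2 genes were lower (8.82% of all genes) and 0 higher (6.95%) at an unadjusted p under 0.05, and 3 had every ILC1 library below every NK library (13.3%). These counts are near the shares of all genes. Beside Klf2 these were Klf12 and Klf13. Klf12, a transcriptional repressor, averaged 3.10 ± 1.61 CPM in ILC1 libraries and 11.3 ± 1.97 CPM in NK libraries (log2 fold change -1.86 ± 0.51, edgeR adjusted p = 0.202). It was the 1 KLF gene that DESeq2 called, as lower (2.87% of all genes). Klf13, an activator of Ccl5 in late T cell activation, averaged 97.02 ± 12.9 CPM in ILC1 libraries and 131 ± 18.2 CPM in NK libraries (edgeR adjusted p = 0.298). Klf11 averaged 8.50 ± 0.911 CPM in ILC1 libraries and 5.05 ± 2.43 CPM in NK libraries (edgeR adjusted p = 0.433). Klf4, named after its values were seen, had every ILC1 library above every NK library, at 318, 371 and 289 CPM in ILC1 replicates 1 to 3 and 46.4, 26.7 and 276 CPM in NK replicates 1 to 3.

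The stretches before the RefSeq starts of Klf2 (chr8:72318812-72319061, forward strand, GRCm38.p6) and of Samd3 (chr10:26229457-26229706, forward strand) are given as those of a factor and of another gene whose ILC1 libraries all lay below the NK libraries. Capitals mark CACCC and TCACACC on either strand.

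Klf2: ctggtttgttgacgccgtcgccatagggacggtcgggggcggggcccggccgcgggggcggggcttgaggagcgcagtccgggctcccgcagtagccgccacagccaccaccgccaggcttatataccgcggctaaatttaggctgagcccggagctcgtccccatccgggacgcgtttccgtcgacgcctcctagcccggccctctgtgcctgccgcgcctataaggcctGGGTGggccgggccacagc

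Samd3: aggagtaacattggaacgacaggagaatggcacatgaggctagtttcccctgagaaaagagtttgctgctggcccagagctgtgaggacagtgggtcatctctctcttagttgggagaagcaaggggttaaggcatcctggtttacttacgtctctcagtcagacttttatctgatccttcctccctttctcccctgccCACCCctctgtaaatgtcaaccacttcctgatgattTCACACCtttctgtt

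CACCC was found at 1 place in each, and TCACACC in the Samd3 stretch, beginning 15 bases before the start. A promoter entry was matched for 6 of the 8 genes (S1pr4, S1pr5, Klf2, Klf3, Samd3 and Rasa3), and all 6 held CACCC at least once, with 5 places in that of Klf3, beside 52.01% of all stretches. GTAAACA was in none of the 6.

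Samd3, which encodes a protein with a sterile alpha motif, was at 87.7, 79.5 and 57.7 CPM in ILC1 replicates 1 to 3, against 235, 187 and 173 CPM in NK replicates 1 to 3. The highest ILC1 library lay well below the lowest NK library. Its log2 fold change came to -1.40 ± 0.21 (SE, edgeR adjusted p = 0.103), and within the collagen-rich libraries NK replicate 3 exceeded the ILC1 mean by 2.07-fold.

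Rasa3, a GTPase-activating protein that switches off Rap1 and Ras and so limits integrin activation, was at 178, 166 and 130 CPM in ILC1 replicates 1 to 3, against 356, 374 and 289 CPM in NK replicates 1 to 3. The libraries of the cell types did not overlap, and Rasa3 stood at ranks 949 to 1690 in ILC1s and 445 to 520 in NK cells. The log2 fold change was -1.10 ± 0.18 (SE, edgeR adjusted p = 0.106), and NK replicate 3 exceeded the collagen-rich ILC1 mean by 1.68-fold.

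The libraries of the cell types overlapped for the related GTPase-activating proteins Rasa1 and Rasa2. Rasa2 averaged 52.2 ± 4.25 CPM in ILC1 libraries and 53.8 ± 2.06 CPM in NK libraries, and Rasa1 76.4 ± 18.6 CPM in ILC1 libraries and 103 ± 12.7 CPM in NK libraries. Of 25 tested Ras and Rap1 regulators, 0 passed edgeR's test, 9 were lower (8.82% of all genes) and 0 higher (6.95%) at an unadjusted p under 0.05, DESeq2 called 2 lower, Rasa3 and Rasgrp2 (2.87% of all genes), and the median log2 fold change was -0.33. Rasgrp2, an exchange factor that switches Rap1 on, had the smallest p of the list, with 10.5 ± 1.89 CPM in ILC1 libraries and 44.9 ± 11.7 CPM in NK libraries (log2 fold change -2.10 ± 0.25, edgeR adjusted p = 0.0830). Rasal3 averaged 294 ± 35.5 CPM in ILC1 libraries and 478 ± 81.3 CPM in NK libraries (edgeR adjusted p = 0.190), and Rasgrp1, an activator of Ras, 82.3 ± 9.98 CPM in ILC1 libraries and 128 ± 17.8 CPM in NK libraries (edgeR adjusted p = 0.186).

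**Figure D4:**
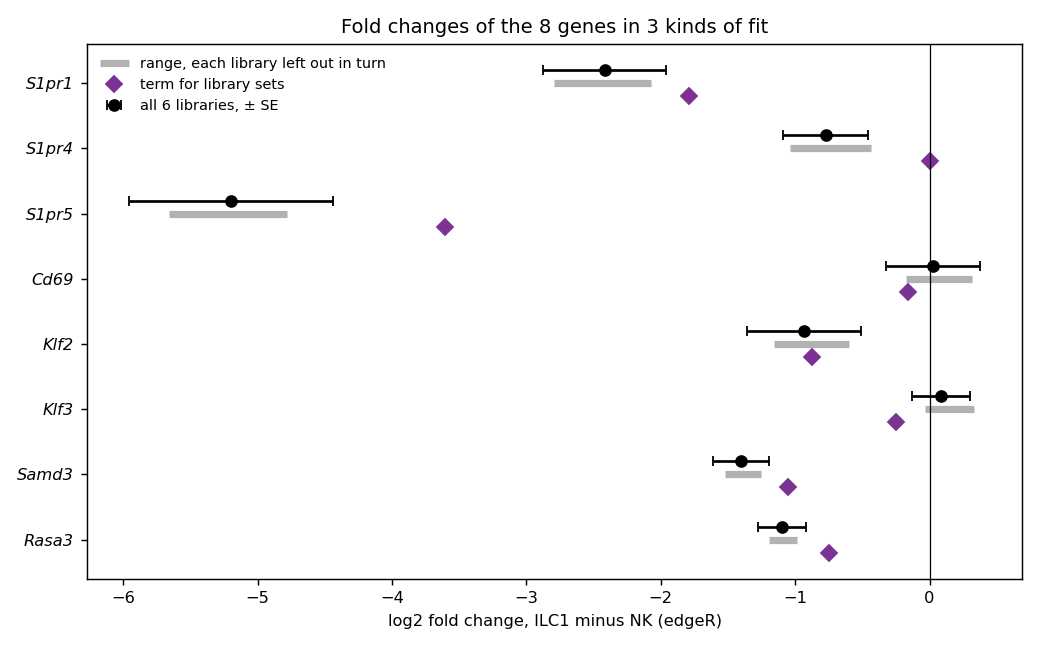
Log2 fold change (ILC1 minus NK) of each gene with all 6 libraries (black, ± SE), the range when each library is left out in turn (grey) and the value with a term for library sets (violet). S1pr1, S1pr5, Klf2, Samd3 and Rasa3 stay below 0 throughout, whereas S1pr4 is at 0.0041 with the set term, and Klf3 and Cd69 change sign.

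Calls of single genes changed with the libraries used. Without NK replicate 3, edgeR called S1pr5, Samd3 and Rasa3 lower, against 1.33% of all genes, and with no low-count filter it called S1pr1, Samd3 and Rasa3, against 0.348%. With the term for library sets it called S1pr5 alone (log2 fold change -3.61, edgeR adjusted p = 0.0201), against 0.117%. With the 3 collagen-rich libraries alone, where the lone NK library is assumed to vary as the ILC1 pair does, it called S1pr1, S1pr5, Klf2, Samd3 and Rasa3, against 6.00%. With any other single library left out, 0 of the 8 were called, and 4 or 5 had an unadjusted p under 0.05. S1pr1, S1pr5, Klf2, Samd3 and Rasa3 kept a negative fold change in all 16 alternatives, and S1pr4 in 15 of 16. Among these alternatives, the set term and the collagen-rich libraries alone are not separate checks.

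Of 11 tested factors known to act on these genes, 0 passed edgeR's test, 1 was higher (6.95% of all genes) and 1 lower (8.82%) at an unadjusted p under 0.05, and the median log2 fold change was -0.13. Zfp683, the residency factor that represses Klf2 and S1pr1 in mouse lymphocytes, averaged 51.5 ± 10.3 CPM in ILC1 libraries and 4.97 ± 2.21 CPM in NK libraries (log2 fold change 3.37 ± 0.40, edgeR adjusted p = 0.0830). Prdm1, which encodes Blimp-1, did not go with it. Its level was 12.9, 10.2 and 61.3 CPM in ILC1 replicates 1 to 3, against 48.7, 35.1 and 34.3 CPM in NK replicates 1 to 3. The cell types overlapped (log2 fold change -0.49 ± 0.72, edgeR adjusted p = 0.761). The part of Hobit and Blimp-1 in the Klf2 and S1pr1 levels was not tested. Tbx21, which encodes T-bet, was at 246, 208 and 207 CPM in ILC1 replicates 1 to 3. In NK replicates 1 to 3 it was at 233, 298 and 195 CPM, and the cell types overlapped. The part of T-bet in the S1pr5 level was not tested. Foxo1, an activator of Klf2 in T cells, averaged 50.0 ± 14.7 CPM in ILC1 libraries and 72.3 ± 8.71 CPM in NK libraries (edgeR adjusted p = 0.354), and Foxo3 52.8 ± 2.56 CPM in ILC1 libraries and 38.0 ± 10.4 CPM in NK libraries (edgeR adjusted p = 0.344). Zeb2, which encodes a ZEB factor, overlapped between the cell types (log2 fold change 1.05 ± 0.67, edgeR adjusted p = 0.491). It was at 48.5, 48.0 and 211 CPM in ILC1 replicates 1 to 3, against 45.8, 35.7 and 66.9 CPM in NK replicates 1 to 3. Tbx21, Foxo1, Prdm1 and Zeb2 were named after their values were seen. DESeq2 called Zfp683 higher (2.76% of all genes) and Eomes lower (2.87%).

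Of 13 circulation and homing genes tested, 0 passed edgeR's test, 8 were lower (8.82% of all genes) and 1 higher (6.95%) at an unadjusted p under 0.05, DESeq2 called 4 lower (2.87%), limma-voom called 1 lower (0.0138%), and the median log2 fold change was -0.65. Itga4, the alpha 4 integrin chain, averaged 73.8 ± 9.08 CPM in ILC1 libraries and 240 ± 37.5 CPM in NK libraries (edgeR adjusted p = 0.0579), and Cxcr3, a chemokine receptor of effector lymphocytes, 38.6 ± 7.33 CPM in ILC1 libraries and 89.2 ± 25.4 CPM in NK libraries (edgeR adjusted p = 0.144). Of 11 residency genes, 1 passed edgeR's test as higher (Cxcr6), 7 were higher at an unadjusted p under 0.05 (6.95% of all genes), 8 had every ILC1 library above every NK library (12.5% of all genes), and the median log2 fold change was 1.73. Cxcr6, a receptor that holds lymphocytes in tissue, averaged 72.4 ± 17.0 CPM in ILC1 libraries and 5.55 ± 1.87 CPM in NK libraries (edgeR adjusted p = 0.0447), and Itga1 152 ± 24.2 CPM in ILC1 libraries and 45.7 ± 6.71 CPM in NK libraries (edgeR adjusted p = 0.0579). The call of Cxcr6 was lost when replicate 1 or replicate 2 of either cell type was left out, where edgeR called 0 genes of all tested.

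The medians of several lists rest on the libraries. With the term for library sets the median was 0.51 for residency genes, -0.30 for circulation genes and 0.0041 for S1P receptors, and it turned negative for KLF genes (-0.12) and early activation genes (-0.057). With each library left out in turn, the median ran from 1.51 to 1.86 for residency genes, from -1.05 to -0.55 for circulation genes, from -0.45 to -0.15 for Ras and Rap1 regulators, from -1.04 to -0.43 for S1P receptors, from 0.20 to 0.73 for KLF genes, from 0.080 to 0.43 for early activation genes and from -0.24 to -0.080 for the factors.

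**Figure D5:**
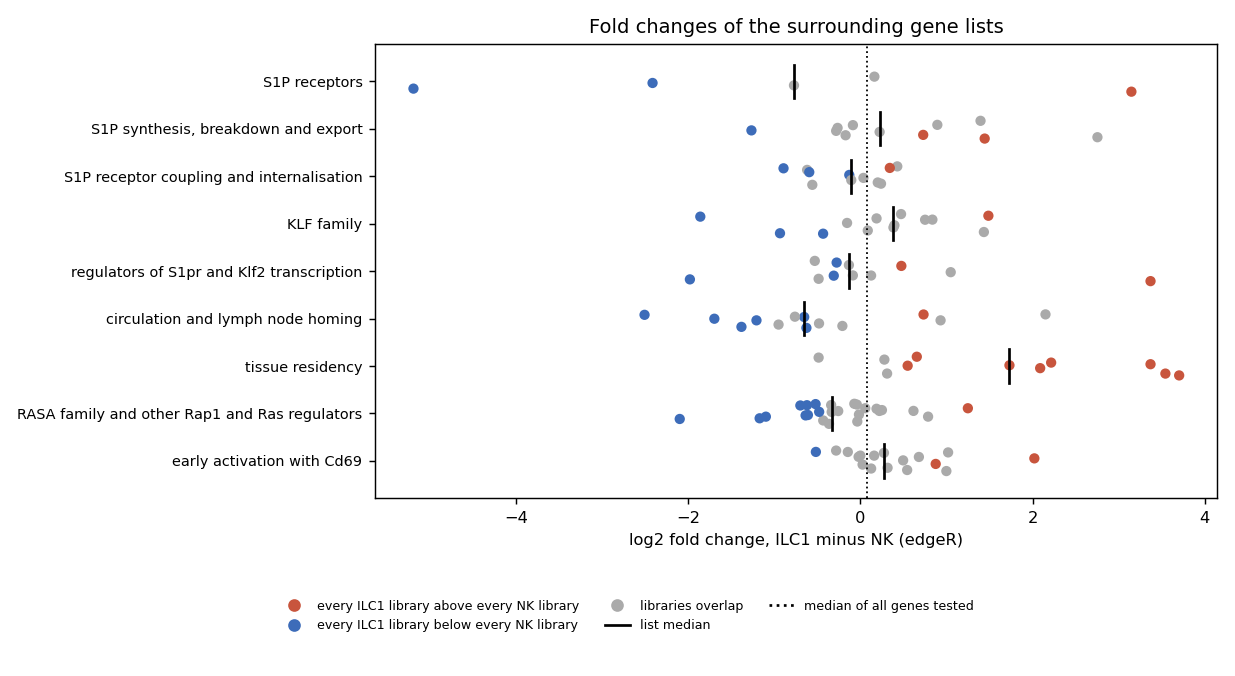
Log2 fold changes (ILC1 minus NK) of the tested genes of each list, with the list median as a bar and the median of all genes tested as a dotted line. Colours mark genes whose ILC1 libraries all lie above (red) or below (blue) all NK libraries. The list medians run from -0.77 for S1P receptors to 1.73 for residency genes.

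Genes whose profile over the 6 libraries was closest to a given gene were found by the root mean square difference of centred log2 CPM, among 8873 other named genes with a mean of at least 10 CPM. Near S1pr1 stood Gzma (granzyme A) at 0.19 and Myb, a transcription factor of lymphoid progenitors, at 0.20 log2 units. Gzma was at 903, 919 and 323 CPM in ILC1 replicates 1 to 3 and at 4204, 3976 and 2526 CPM in NK replicates 1 to 3. Nearest to Klf2 stood Ifng, the interferon gamma gene, at 0.072 log2 units, with 104, 97.7 and 34.02 CPM in ILC1 replicates 1 to 3 and 123, 120.5 and 167 CPM in NK replicates 1 to 3. Both Klf2 and Ifng were lowest in ILC1 replicate 3 and highest in NK replicate 3. The genes nearest to S1pr5, Ret (0.73), Cmah (0.82) and Phactr3 (0.86), were less close, and those nearest to Cd69, Slf1 (0.080), Siah1a (0.081) and Sos1 (0.085), had fold changes near 0 like it. Within the 8 genes the closest pair was Samd3 and Rasa3, at 0.20 log2 units, followed by Klf3 and Cd69 at 0.33.

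On GRCm38 (GENCODE M21, 1-based) all 8 are protein-coding genes. S1pr1 lies on chromosome 3 (115710433 to 115715072), S1pr5 on chromosome 9 (21242912 to 21248443) and S1pr4 on chromosome 10 (81497747 to 81500132), which also carries Samd3 (26229707 to 26272172). Klf2 (72319033 to 72321656) and Rasa3 (13566948 to 13677603) share chromosome 8, Klf3 lies on chromosome 5 (64803388 to 64832901) and Cd69 on chromosome 6 (129267325 to 129275436). S1pr1, S1pr4, S1pr5, Rasa3 and Cd69 are on the reverse strand and the others on the forward strand.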

How the data were processed

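The authors deposited raw counts per gene symbol, 1 column per sample. The aligner HISAT2 2.1.0, featureCounts 2.0.1 and GRCm38 are named, per the submitters' processing notes, and mRNA was selected with oligo(dT) beads and read as single ends of 50 bases, per the labels' protocols. The sources used here do not give the annotation release, strand setting or handling of multi-mapping reads: reads of antisense or similar genes may be shared. PCR copies are part of the counts, since no molecular identifiers are mentioned.

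CPM use TMM-scaled library sizes, and 3 counts, the limit a count of 0 allows, equal 0.144 to 0.174 CPM. ILC1 was compared with NK across all genes by edgeR 4.0.16 (R 4.3.3; filterByExpr, robust quasi-likelihood fit, Benjamini-Hochberg threshold 0.05), and SE is the fold change divided by the root of F. DESeq2 1.42.0 and limma-voom (limma 3.58.1) were alternatives. Levels per kilobase use all exons of GENCODE M21, and promoter stretches come from RefSeq (GRCm38.p6). No pair of libraries agreed within sampling noise. The fit was also run on simulated counts. Their spread between samples (dispersion) was below the 0.352 estimated here, and they held no library sets. That run therefore does not show how the fit performs on these data.

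The 8 genes, the 9 pathway lists and 8 marker lists, and the rule for named genes (the 8 genes, the 3 smallest p of each pathway list, and the nearest profiles) were chosen with earlier results of these data known. This rule also picks 2 genes whose values are left out.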

Additional observations from a re-analysis of the deposited data

How the results depend on the processing

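With all 6 libraries edgeR called 12 genes (11 higher, 1 lower) and 0 of the 8. The count of genes called was 138 with no low-count filter, 808 with DESeq2, 33 with the term for library sets and 1891 in the collagen-rich libraries alone, and it ran from 0 to 449 with each library left out in turn (449 without NK replicate 3, 22 without ILC1 replicate 3, and 0 without any 1 of the other 4, where 1266 to 2026 genes had an unadjusted p under 0.05). Of the 8 genes, 3 were called with no low-count filter, 4 with DESeq2 and 0 to 3 with a library left out. RLE and upper-quartile normalization, a minimum mean of 5 CPM, limma-voom and a prior count of 2 called 12 to 18 genes and 0 of the 8. The fold change of Cd69 turned negative with upper-quartile normalization (-0.011), the set term (-0.16) and the collagen-rich libraries alone (-0.20), and ran from -0.17 to 0.32 with a library left out. That of Klf3 turned negative with the set term (-0.25) and the collagen-rich libraries alone (-0.29), and ran from -0.034 to 0.33 with a library left out. That of S1pr4 was 0.0041 with the set term. For these the cause was not tested. With lengths of the longest APPRIS principal transcript, used for shares and ratios per length and chosen after seeing the data, the S1pr2 share in ILC1s was 14.8% (12.2% with all exons) and the S1pr4 share averaged 66.5% in ILC1s and 47.6% in NK cells.

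Replicate numbers 1 to 3 recur in both cell types, and the labels tie them to no mouse or day. Deviations of same-numbered libraries from their group means correlated at -0.36, -0.36 and -0.56 across genes, and no library correlated best with its own number. ILC1 replicates 1 and 2 correlated best with NK replicate 3 (0.49 and 0.57), so the library sets enter these values. The check therefore cannot tell whether equal numbers mark a shared mouse or day. With the replicate block edgeR called 0 genes and 0 of the 8, with 1584 genes at an unadjusted p under 0.05.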
